A study of Homo sapiens with 34 samples.

Results

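In *Bmal1*:*luc* U2OS cells treated with 6AN, BMAL1 peaks that were called under 6AN and in none of the other 3 libraries numbered 1360. They were 34.0% of the 4001 merged intervals of the study and 58.8% of the 2314 intervals with a BMAL1 peak under 6AN. U2OS is a human osteosarcoma line, and this derivative, used in both conditions, carries luciferase under a *Bmal1* promoter. 6AN (6-aminonicotinamide) inhibits the pentose phosphate pathway (PPP), and cells received 5 mM 6AN or DMSO as control. Chromatin was taken after 24 hr for ChIP-seq, with 1 library for each of BMAL1 and CLOCK in each condition, so no difference between peak lists had a replicate. Cells for RNA-seq were synchronized with dexamethasone in both conditions. Expression came from 12 RNA-seq libraries per condition, labelled CT00 to CT44 at 4 hr steps, and each time point had 1 library per condition. The intervals were chosen from the peak calls themselves, by an entry for BMAL1 under 6AN and none for BMAL1 in control or for CLOCK in either condition. The peak calls and their scores are therefore given as a description. For comparison, 765 intervals had BMAL1 in control alone, 428 had BMAL1 in both conditions without CLOCK, 513 had both BMAL1 and CLOCK under 6AN, and 716 had CLOCK under 6AN alone.

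BMAL1 is a basic helix-loop-helix PAS protein that pairs with CLOCK, and the pair binds the E-box to activate the *PER*, *CRY*, and *NR1D1* genes, whose products feed back on it. The gene that encodes BMAL1, *ARNTL*, is in turn driven by ROR receptors and repressed by REV-ERB receptors through elements in its promoter. BMAL1 ChIP in other cells is known to recover E-box sites shared with CLOCK as well as sites at active promoters. An interval is treated here as a called peak, and not as proof of a binding site.

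The promoter sequences below show both kinds of interval that the results turn on. The first 4 are the start-site windows, 300 bases long, at the highest-scoring 6AN-only BMAL1 intervals whose window held the E-box CACGTG. The last 4 are windows at genes of the fixed lists, and none of them held an E-box. Sequences are from RefSeq (GRCh38.p14), 250 bases before to 50 after the start site, written on the strand of the gene, with the E-box in capitals. The windows are *USP28* at chr11:113875523-113875822 (minus strand), *FRA10AC1* at chr10:93702543-93702842 (minus), *SF3B1* at chr2:197435044-197435343 (minus), *ARL3* at chr10:102714348-102714647 (minus), *ARNTL* at chr11:13277540-13277839 (plus), *CLOCK* at chr4:55546860-55547159 (minus), *FTL* at chr19:48965059-48965358 (plus), and *MARS*, whose locus in the tables has the same coordinates as that of *DDIT3*, at chr12:57487818-57488117 (plus). *USP28* encodes a deubiquitinase, *SF3B1* a core splicing factor, *ARL3* a small GTPase of the cilium, and *FTL* the ferritin light chain. *MARS* encodes methionyl-tRNA synthetase.
USP28: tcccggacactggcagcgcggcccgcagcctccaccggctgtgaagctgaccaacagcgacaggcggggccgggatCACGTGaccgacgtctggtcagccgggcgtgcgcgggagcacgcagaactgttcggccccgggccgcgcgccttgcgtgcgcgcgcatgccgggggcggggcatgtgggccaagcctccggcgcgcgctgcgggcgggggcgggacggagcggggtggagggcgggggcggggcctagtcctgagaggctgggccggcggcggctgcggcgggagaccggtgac
FRA10AC1: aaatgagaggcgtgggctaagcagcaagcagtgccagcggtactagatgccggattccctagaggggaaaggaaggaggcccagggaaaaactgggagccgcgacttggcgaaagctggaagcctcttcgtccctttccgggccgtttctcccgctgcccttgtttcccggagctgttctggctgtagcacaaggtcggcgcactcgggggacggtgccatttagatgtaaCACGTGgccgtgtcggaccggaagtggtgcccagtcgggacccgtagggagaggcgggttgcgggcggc
SF3B1: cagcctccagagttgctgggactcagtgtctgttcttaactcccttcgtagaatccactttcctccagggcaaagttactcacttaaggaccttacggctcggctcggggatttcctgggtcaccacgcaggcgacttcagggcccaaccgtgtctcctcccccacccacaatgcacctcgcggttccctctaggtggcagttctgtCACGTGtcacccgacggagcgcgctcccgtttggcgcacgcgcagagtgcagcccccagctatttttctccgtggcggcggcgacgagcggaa
ARL3: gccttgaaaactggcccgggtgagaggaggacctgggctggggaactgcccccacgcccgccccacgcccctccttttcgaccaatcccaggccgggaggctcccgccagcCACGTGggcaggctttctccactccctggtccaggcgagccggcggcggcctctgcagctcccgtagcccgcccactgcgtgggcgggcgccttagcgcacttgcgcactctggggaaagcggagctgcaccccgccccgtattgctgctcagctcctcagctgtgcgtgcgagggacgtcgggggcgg
ARNTL: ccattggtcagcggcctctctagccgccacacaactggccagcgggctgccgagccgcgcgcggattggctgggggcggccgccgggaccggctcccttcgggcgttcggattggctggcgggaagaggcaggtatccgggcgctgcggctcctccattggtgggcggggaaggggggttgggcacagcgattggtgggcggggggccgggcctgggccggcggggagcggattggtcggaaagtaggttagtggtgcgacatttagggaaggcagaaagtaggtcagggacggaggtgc
CLOCK: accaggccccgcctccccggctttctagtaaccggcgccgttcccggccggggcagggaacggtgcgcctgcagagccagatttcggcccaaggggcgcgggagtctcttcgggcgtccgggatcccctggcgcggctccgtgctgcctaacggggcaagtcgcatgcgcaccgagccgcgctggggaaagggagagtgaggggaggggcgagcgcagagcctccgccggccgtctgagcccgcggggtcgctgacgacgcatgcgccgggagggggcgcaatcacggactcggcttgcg
FTL: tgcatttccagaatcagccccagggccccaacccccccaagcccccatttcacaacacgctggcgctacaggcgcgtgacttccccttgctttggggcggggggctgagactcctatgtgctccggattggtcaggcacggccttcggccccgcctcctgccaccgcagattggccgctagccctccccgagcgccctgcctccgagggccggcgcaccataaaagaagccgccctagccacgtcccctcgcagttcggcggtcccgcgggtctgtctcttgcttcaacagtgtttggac
MARS: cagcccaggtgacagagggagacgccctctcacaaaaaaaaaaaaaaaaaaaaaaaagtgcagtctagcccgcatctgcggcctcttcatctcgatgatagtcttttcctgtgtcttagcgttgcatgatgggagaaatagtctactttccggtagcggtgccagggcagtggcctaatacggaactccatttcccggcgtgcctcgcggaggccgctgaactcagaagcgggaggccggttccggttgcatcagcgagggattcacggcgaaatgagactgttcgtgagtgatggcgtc
In each of these first 4 windows the E-box lay inside the called interval. It lay outside the interval in the window of *BYSL*, which had the same score as *ARL3* (28.5), and in those of *CNDP2* and *NUP50*, next in score. The intervals at *ARNTL*, *FTL*, and *MARS* overlapped windows with neither CACGTG nor CACGTT, and the window of *CLOCK* held only the antioxidant response element core among the motifs searched. The windows of *ARNTL* and *MARS* covered their whole intervals, but those of *CLOCK* and *FTL* covered less than the larger part. The rest of the *CLOCK* and *FTL* intervals was not searched. These matches describe letters in a window and not bound sites.

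The 6AN-only BMAL1 intervals were low in score. The peak score is the number of tags in the peak scaled by HOMER to a common library total, and it ranged from 10.8 to 105.1 with a median of 15.8 (quartiles 13.9 and 19.6). The lowest score stood for 8.53 tags and the median for 12.5 tags of the BMAL1 library. A score of at most 20 was held by 1063 of the 1360 intervals, and a score of at least 30 by 43. The intervals with BMAL1 in control alone had a median score of 15.4, and those with BMAL1 in both conditions without CLOCK of 20.4. Where BMAL1 and CLOCK were both called under 6AN, the median, averaged over the merged libraries, was 25.9. All 1360 intervals were 200 bp wide and held 1 peak.

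**Figure D1:**
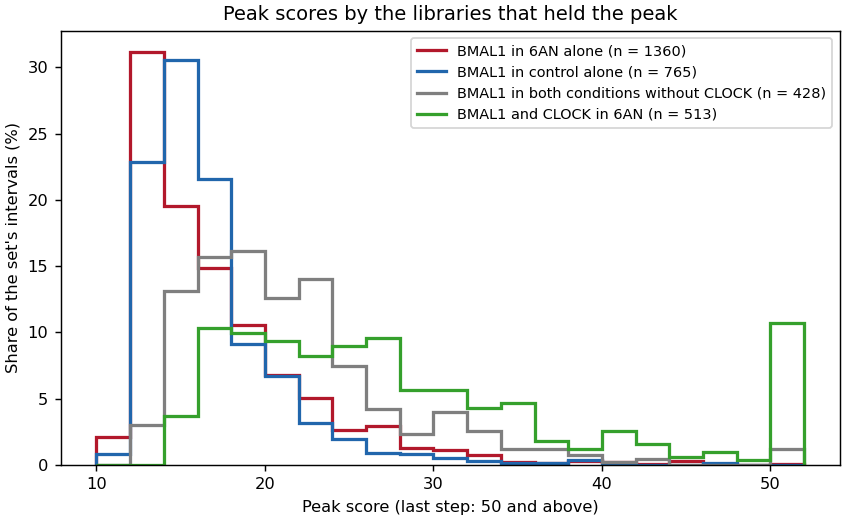
Share of intervals (%) by HOMER peak score in steps of 2, with scores of 50 and above in the last step, for BMAL1 intervals in 6AN alone, in control alone, in both conditions without CLOCK, and with CLOCK under 6AN. The 6AN-only intervals (median 15.8) lie at the low end beside the control-only ones (median 15.4), and the intervals with CLOCK reach highest.

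Few of the intervals lay close to a peak of another library. The nearest were 201, 214, and 217 bp from an interval with another entry, with scores of 12.7, 19.6, and 23.4. In all, 64 (4.71%) lay within 1 kb of an interval with another entry, 43 of them near BMAL1 in control. The 2 lowest scores, at 10.8, mark the lower edge of the list. No interval overlapped the 1000 bp window of any of the 439 shared BMAL1/CLOCK sites of the 6AN condition. The rule allowed no CLOCK peak, and no 6AN-only interval lay closer than 1013 bp to another. The lack of overlap is therefore no separate result. The CLOCK libraries, in which no peak was allowed, were shallower than the BMAL1 libraries, with 4078867 tags in control and 4550721.5 under 6AN. Depth was alike in both BMAL1 libraries, with 7462051 tags in control and 7896479.5 under 6AN (a ratio of 1.06), but not in the input libraries, which held 33273105.5 tags in control and 9651105 under 6AN (a ratio of 0.290). The part of the CLOCK depth and of the input difference in the peak calls was not tested. The relative depth of the RNA-seq libraries, read from the smallest steps of low values, ran from 0.578 to 1.31 in control and from 0.692 to 1.55 under 6AN, each against the median of its own table. Among U2OS markers, *VIM* was at 917 ± 94.9 FPKM in control and 747 ± 76.5 under 6AN (SD, n = 12 time points) and *RUNX2* at 14.0 ± 1.99 and 13.9 ± 1.61. *COL1A1* was at 128 ± 31.5 FPKM in control and 33.9 ± 18.3 under 6AN, *SPARC* at 323 ± 21.4 and 129 ± 28.97, and *ALPL* at 6.41 ± 1.40 and 3.73 ± 0.646, and *COL1A2* stayed at or below 0.106 in every library. *CDH1*, *PTPRC*, *CD3E*, and *ALB*, which mark other cell types, did not exceed 0.446 FPKM, and *EPCAM* was at 1.02 ± 0.289 and 0.734 ± 0.352.

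Most of these intervals sat at promoters. Distances could be read for 1299 intervals with RefSeq start-site windows on their chromosome, and the median distance from the interval centre to the nearest start site was 145 bp. The centre lay within 100 bp of a start site in 526 (40.5%, 95% Wilson interval 37.9% to 43.2%) and within 500 bp in 829 (63.8%, 61.2% to 66.4%). A smaller group of 131 (10.1%) lay over 50 kb from any start site of these windows. The windows may lack some start sites, so far distances can be overstated. The interval at *XRCC5*, for example, lay 85 bp outside its locus but 27293 bp from the nearest start site. The control-only intervals gave nearly the same values, with 36.7% within 100 bp and 64.3% within 500 bp. Intervals with BMAL1 in both conditions lay closer, with 80.8% within 500 bp (76.7% to 84.3%). Those with both BMAL1 and CLOCK under 6AN lay farther off, with 45.4% (41.0% to 49.8%). All of these intervals for shares cover counting error only.

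Among the 665 intervals centred within 150 bp of a start site, 502 (75.5%, 72.1% to 78.6%) lay on its upstream side. The control-only intervals gave 70.3% (65.3% to 74.9%). A start-site window was overlapped by 773 of 1299 (59.5%), and 202 of these (26.1%) overlapped windows on both strands, as at divergent gene pairs. Over all merged intervals these shares were 51.9% and 26.2%. By the loci of the expression tables, 647 of the 1360 (47.6%, 44.9% to 50.2%) were centred inside a locus. A further measure put 817 (60.1%) within 500 bp of a locus end and 1195 (87.9%) in or within 5 kb of a locus. Over all merged intervals the same shares were 48.2%, 52.7%, and 85.1%.

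**Figure D2:**
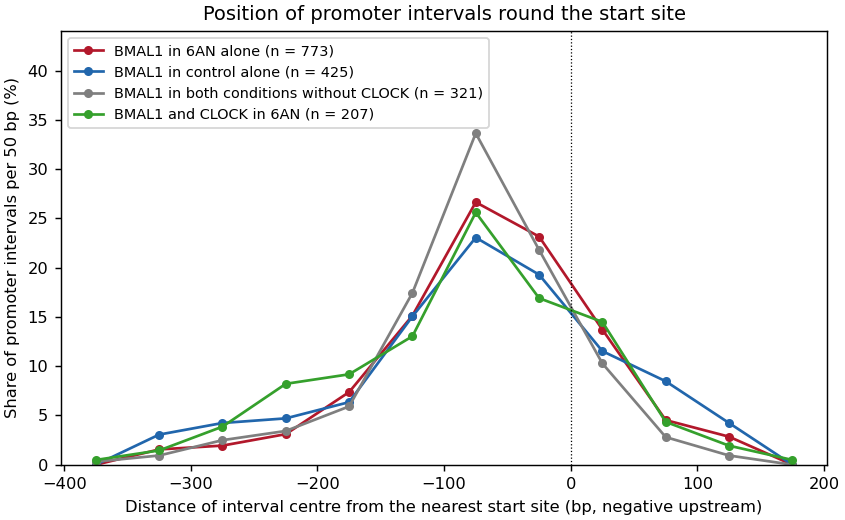
Distance of the interval centre from the nearest RefSeq start site (bp, negative upstream) for intervals that overlap a start-site window, as a share (%) per 50 bp and set. All 4 sets are highest between 100 and 50 bp upstream, with 26.6% of the 773 BMAL1 intervals of 6AN alone in that bin.

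The canonical E-box was uncommon at these intervals. Of the 773 start-site windows, 1 for each interval, 98 held CACGTG on either strand (12.7%, 10.5% to 15.2%). The share was 14.6% (11.6% to 18.3%) at control-only intervals and 13.1% (9.83% to 17.2%) at intervals with BMAL1 in both conditions. It was 52.7% (45.9% to 59.3%) where CLOCK was also called under 6AN, and the intervals of the shares did not overlap. The E-box was in 7.23% of all promoter windows and in 9.18% of those of expressed genes. In windows with an E-box, its median distance from the interval centre was 57.5 bp at 6AN-only intervals. It was 27.5 bp where BMAL1 and CLOCK were both called under 6AN. When the windows were split into 4 groups by score, an E-box was in 13.9%, 11.4%, 11.9%, and 13.5% from the lowest scores to the highest.

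The promoters at the intervals were rich in G and C. Their median GC content was 67.0%, against 58.7% over all windows and 64.7% over those of expressed genes. The other interval sets were slightly higher, at 68.7% for control-only intervals and 69.3% with BMAL1 in both conditions without CLOCK. The median was 69.7% where BMAL1 and CLOCK were both called under 6AN and 67.3% with CLOCK under 6AN alone. The GC box GGGCGG was in 77.2% (74.1% to 80.0%), against 65.02% at expressed genes and 85.9% at control-only intervals. Within windows of 65% to 75% GC, the E-box was in 14.2% of 351 windows at 6AN-only intervals and in 10.4% of all windows. At control-only intervals it was in 15.1% of 205 such windows.

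The cAMP response element (CRE) TGACGTCA, a site for CREB and ATF factors, was in 49 of the 773 windows (6.34%, 4.83% to 8.28%). It was in 2.74% of windows of expressed genes and in 4.00% (2.51% to 6.31%) at control-only intervals, and the Wilson intervals of the 2 interval sets overlapped. At intervals with BMAL1 in both conditions without CLOCK it was in 6.54%, and where BMAL1 and CLOCK were both called under 6AN in 6.76%. With CLOCK under 6AN alone it was in 1.16%, so the share was not particular to the 6AN-only intervals. The antioxidant response element core TGACNNNGC, to which NRF2 binds, was in 13.1% (10.9% to 15.6%), against 14.4% at expressed genes. It was in 19.8% (16.3% to 23.8%) at control-only intervals and in 29.95% where BMAL1 and CLOCK were both called under 6AN. With CLOCK under 6AN alone it was in 18.5% (13.4% to 24.9%). The AP-1 element TGANTCA was in 2.98% and the E-box variant CACGTT in 5.69%, against 5.45% and 5.88% at expressed genes. Motifs were searched on both strands. The antioxidant core and the CRE share the letters TGAC, but 1 TGAC cannot count for both, because the core then needs a G where the CRE has an A.

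**Figure D3:**
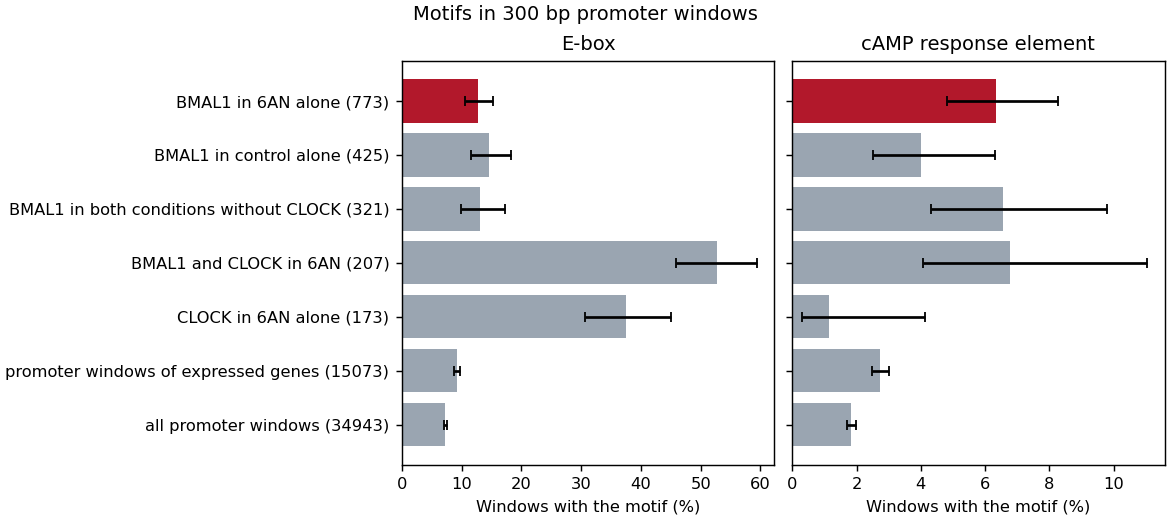
Share (%) of 300 bp start-site windows with the E-box (left) and the CRE (right), as bars with 95% Wilson intervals as error bars and the number of windows in parentheses. For the E-box, the 6AN-only BMAL1 intervals are near the other BMAL1 sets without CLOCK, at 12.7%, against 52.7% with BMAL1 and CLOCK under 6AN. For the CRE they are at 6.34%, beside 6.54% with BMAL1 in both conditions and 6.76% with BMAL1 and CLOCK under 6AN.

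Genes at the intervals were mostly active. A gene was placed at an interval when the interval was centred in its locus or within 5 kb of either end. This gave 2097 genes, of which 1758 (83.8%) had a mean FPKM of at least 0.7 over the 24 libraries, against 51.2% of all 28690 loci. The share was 84.1% at control-only intervals and 84.6% with BMAL1 in both conditions without CLOCK. It was 79.9% where BMAL1 and CLOCK were both called under 6AN. The median level of the 1758 genes was 15.7 FPKM, against 10.6 over all 14678 expressed genes and 16.5 at control-only intervals. The authors' loci join overlapping genes, so 993 of the 2097 genes (47.4%) had the same coordinates as another gene. The share was 41.9% of the 1758 expressed genes and 31.5% of all 28690 loci. Which gene of a joined locus lay nearest an interval then cannot be read from the locus alone. In all, 569 intervals were assigned to more than 1 gene.

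Levels under 6AN and in control were compared at the same time point as log2((6AN FPKM + 1)/(control FPKM + 1)). The tables were normalized separately by condition, so the ratios are a description with no test. A gene was called higher or lower where the mean ratio passed 1.5-fold and at least 10 of 12 time points went the same way. Of the 1758 genes, 55 (3.13%) were higher under 6AN, against a background of 3.77% of all expressed genes, and 88 (5.01%) were lower, against 7.86%. The median ratio was -0.02 on the log2 scale, with an SD of 0.01 over time points, and -0.04 over all expressed genes with the same SD. At the 828 expressed genes whose own start-site window overlapped an interval, 24 (2.90%) were higher and 31 (3.74%) lower. Both shares lay below those of all expressed genes, and the difference was not tested. At the intervals where CLOCK was also called under 6AN, 53 of 556 genes (9.53%) were higher and 26 (4.68%) lower.

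**Figure D4:**
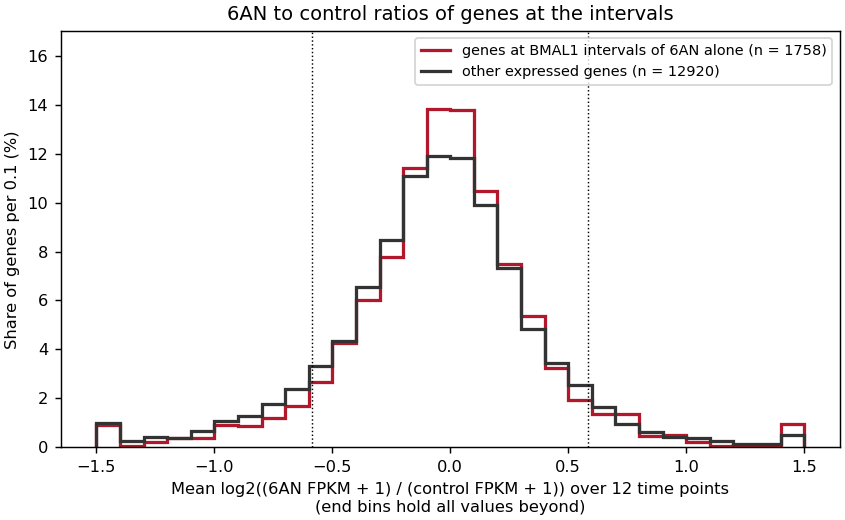
Mean log2 ratio of 6AN to control over 12 time points, as a share (%) of genes per 0.1, for the 1758 expressed genes at 6AN-only BMAL1 intervals and the 12920 other expressed genes, with dotted lines at 1.5-fold and all values beyond the ends in the end bins. Both curves are centred near 0, and 3.13% of genes at the intervals were called higher and 5.01% lower.

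Among the genes past the fold rule, the highest ratio was that of *DDIT3*, which encodes CHOP, a transcription factor of the integrated stress response. Its FPKM ran from 15.4 through a median of 24.4 to 31.4 in control and from 52.7 through 82.9 to 122 under 6AN. The groups did not overlap, and the mean log2 ratio was 1.81 ± 0.42 (SD over 12 time points), or 3.51-fold. The interval, at chr12:57487830-57488030 with a score of 14.6, lay 138 bp from the start site of *MARS*, whose locus has the same coordinates in the tables. *MARS* itself was at 85.7 ± 12.8 FPKM in control and 113 ± 12.01 under 6AN, or 1.32-fold, which missed the fold rule.

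*CTGF*, a matricellular growth factor gene, ran from 143 to 245 FPKM in control (median 183) and from 436 to 612 under 6AN (median 522). The lowest 6AN library was above the highest control library, and the mean log2 ratio was 1.49 ± 0.14. Its interval lay inside the gene, 1856 bp from the start site, with a score of 12.7. *BMP6*, a bone morphogenetic protein gene, ran from 1.48 to 3.18 FPKM in control and from 6.30 to 8.86 under 6AN, again with no overlap. One of its 2 intervals, with a score of 15.2, lay 4 bp from the start site of the readthrough gene *BLOC1S5-TXNDC5*, which shares the locus. The joint entry that holds this gene went the other way. It was at 105 ± 6.92 FPKM in control and 82.1 ± 4.81 under 6AN, or 0.787-fold, which missed the fold rule.

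*SLC3A2*, the heavy chain of several amino acid transporters, had a median of 120 FPKM in control (98.6 to 150) and 243 under 6AN (217 to 288), and it was 2.02-fold higher. An interval with a score of 29.1 lay over its start-site window, 87 bp from that of the noncoding gene *SNHG1*. *PTPRM*, a receptor tyrosine phosphatase gene, had a median of 13.6 FPKM (12.6 to 15.1) in control and 28.9 (26.3 to 29.97) under 6AN, with the interval at its own start site. *HEY1*, a Notch target that encodes a repressor, ran from 0.914 to 2.52 FPKM in control and from 3.04 to 6.40 under 6AN.

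The other 2 genes of the 8 highest past the fold rule were small RNAs. *SNORD68* lies in the locus of *RPL13*, a ribosomal protein gene, and ran from 0 to 2780 FPKM in control and from 967 to 5123 under 6AN, with a log2 ratio of 1.48 ± 2.87. The 0 was at CT40, and without that time point the log2 ratio was 0.71, below the values of the other 7 genes over all time points. *SCARNA2* ran from 2.16 to 9.73 FPKM in control and from 4.44 to 109 under 6AN, with medians of 5.65 and 9.93 and an SD of 1.44 for the log2 ratio, which was 0.62 without CT08. In both the spread over time points exceeded the ratio. *RPL13*, whose start site lay 100 bp from the interval, was 1.57-fold higher, at 355 ± 29.5 FPKM in control and 558 ± 53.7 under 6AN.

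Of the 8 lowest ratios past the fold rule, 3 were of genes known to act in DNA replication or mitosis. *CDC6*, which loads the replicative helicase, ran from 22.1 through 28.6 to 33.8 FPKM in control and from 6.96 through 12.8 to 18.1 under 6AN. All 6AN libraries were below all control libraries, and the log2 ratio was -1.18 ± 0.29, with an interval 167 bp from its start site (score 12.7). *MELK*, a mitotic kinase gene, ran from 35.1 to 50.9 FPKM in control and from 11.6 to 24.0 under 6AN, and its interval lay deep inside the locus. *BIRC5*, the gene of the chromosomal passenger survivin, had medians of 65.6 and 29.2 FPKM, and its ranges overlapped slightly (55.7 to 97.8 and 15.4 to 58.6). Its interval, with a score of 23.4, spanned an end of the locus. Other genes with such roles, chosen after their values were seen, had the interval over their own start-site window. They were *MCM7* (log2 ratio -1.03), *CDCA5* (-0.95), *SKP2* (-0.94), and *RFC3* (-0.89). No list of replication or mitosis genes was fixed or tested.

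The other 5 of the lowest ratios came from genes at low level and a small RNA. *SNORD83A*, in the locus of the ribosomal protein gene *RPL3*, had medians of 338 and 148 FPKM and a log2 ratio of -2.56 ± 3.64, and it was listed at 0 in some 6AN libraries. The zeros were at CT28, CT36, and CT44. Without CT28 alone the log2 ratio was -1.91. That value still held the other zeros, and a ratio without all of them was not computed. *CRYBB1* and *CRYBA4*, crystallin genes on either side of 1 interval with a score of 29.8, had medians of 4.33 and 2.03 FPKM in control and of 0.550 and 0.0863 under 6AN. *HAS2*, a hyaluronan synthase gene, ran from 2.37 to 4.83 FPKM in control and from 0 to 0.714 under 6AN, with no overlap. *HSD17B8*, a steroid dehydrogenase gene, had medians of 7.06 and 2.08 FPKM, but its interval lay at the start site of the neighbouring *RXRB*.

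Of 20 clock genes, *ARNTL* and *CLOCK* had a 6AN-only BMAL1 interval. Such an interval lay at 11.98% of all expressed genes, so this count is near that share and is no result about the clock. *NPAS2*, a paralog of *CLOCK*, had none, and 15 of the 20 had a BMAL1 interval of any kind. The share of all expressed genes with a BMAL1 interval of any kind was not computed, so the 15 are a description. The interval at *ARNTL*, chr11:13277601-13277801, had a score of 13.3 and lay 89 bp from its start site, in the promoter printed above. The reporter of this line holds a *Bmal1* promoter, and whether its reads mapped to this interval was not tested. The interval at *CLOCK*, chr4:55546698-55546898, had a score of 18.4 and lay 111 bp from its start site, and an interval with BMAL1 in control alone lay at the same gene. *PER1*, *PER2*, *PER3*, *CRY1*, *CRY2*, *NR1D1*, *NR1D2*, *DBP*, *TEF*, *HLF*, and *BHLHE40* each had an interval called in all 4 libraries. The share of all expressed genes with such an interval was not computed either. Of the 17 clock genes expressed, 5 were higher and 2 lower by the fold rule, against 3.77% and 7.86% of all expressed genes. Neither *ARNTL* nor *CLOCK* was among those called. *CLOCK* ran from 6.83 to 8.97 FPKM in control (median 7.97) and from 4.98 to 7.15 under 6AN (median 5.94). It was lower at all 12 time points, by a log2 ratio of -0.36 ± 0.15.

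The counts of stress genes with an interval were also near the share of 11.98% over all expressed genes. By the fold rule, 3.77% of all expressed genes were higher under 6AN and 7.86% lower. Of 10 targets of the integrated stress response, 9 were higher under 6AN by the fold rule, with a median log2 ratio of 1.15, and 1, *DDIT3*, had a 6AN-only BMAL1 interval. An interval with BMAL1 in both conditions and CLOCK under 6AN also lay at *DDIT3*. Of 14 NRF2 targets, 5 of the 13 expressed were higher and 1 lower, with a median log2 ratio of 0.40, and 1, *FTL*, had an interval, at chr19:48965271-48965471 over its start-site window. *FTL* ran from 1811 to 2449 FPKM in control and from 1846 to 2448 under 6AN, with a log2 ratio of 0.02 ± 0.17. The same interval lay 3573 bp from *BAX*, a p53 target and apoptotic effector, which had medians of 277 and 285 FPKM. An interval with BMAL1 in control and CLOCK under 6AN lay at both genes as well.

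Of 10 p53 targets, 3 had an interval, against 11.98% of all expressed genes. A BMAL1 interval of control alone lay at 3 of the 10, and at 1018 of all 14678 expressed genes. None of the 10 passed the fold rule in either direction. *CDKN1A*, which encodes the cell cycle inhibitor p21, had one of the 12 highest scores, 39.3, at chr6:36680197-36680397, 1583 bp from a start site. Its FPKM ran from 104 through 124 to 147 in control and from 109 through 152 to 193 under 6AN. It was higher at 9 of 12 time points, by a log2 ratio of 0.23 ± 0.25, and the groups overlapped. *TP53I3*, a quinone oxidoreductase gene, had medians of 107 and 101.3 FPKM, with an interval 351 bp from its start site.

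Of the genes of the PPP, none passed the fold rule in either direction. *RPE*, the ribulose-phosphate epimerase gene, was at 24.9 and 22.4 FPKM (medians), and its interval, with a score of 15.8, lay 507 bp from the start site of *KANSL1L*, which shares the locus. Of the 5 expressed U2OS markers, 3 were lower by the fold rule (*COL1A1*, *SPARC*, and *ALPL*), against 7.86% of all expressed genes. None of the 3 had an interval. *RUNX2* had an interval with a score of 25.3, 23645 bp from a start site. *PECAM1*, an endothelial marker, had one with a score of 12.7 in a locus that did not exceed 0.843 FPKM.

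Rhythms were tested within each table by a limma F test of a 24 hr cosine and sine on log2(FPKM + 1) over the 12 time points. Of the 1758 genes at the intervals, 21 (1.19%) were called at p of at most 0.01 in control, against a background of 1.04%, and 18 (1.02%) under 6AN, against 1.18%. With all 12 time points both shares were near the background. The counts rested on single libraries, since without CT00 the 6AN count fell to 8 (0.455%, against 1.23% of all expressed genes) and without CT04 the control count fell to 12 (0.683%, against 0.777%). The 6AN count was 9 without CT04, CT08, or CT40 and 10 without CT12. After Benjamini-Hochberg adjustment over all expressed genes, limma called 0 genes in either condition at 0.05, with 751 in control and 694 under 6AN at an unadjusted p under 0.05. The ordinary F test also called 0, and limma with a linear trend called 1 in control and 0 under 6AN. *ARNTL* was the only gene at the intervals with a call in both conditions.

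*ARNTL* had the smallest p of the genes at the intervals in both conditions. Its FPKM ran from 5.52 through 6.68 to 11.2 in control and from 3.29 through 7.07 to 12.6 under 6AN. In control the highest values were at CT12 (11.2) and CT36 (10.2), and under 6AN at CT20 (12.6) and CT24 (11.5). By limma, p was 0.000106 in control (adjusted p = 0.517) with an amplitude of 0.40 on the log2 scale and a peak at 11.3 hr. Under 6AN the limma p was 3.99e-05 (adjusted p = 0.195) with an amplitude of 0.72 and a peak at 22.1 hr. Both amplitudes and peak times assume a period of 24 hr. The difference between conditions was not tested, because the tables were normalized separately. *CLOCK* gave p = 0.540 in control and p = 0.662 under 6AN by the same limma test.

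The other genes with the smallest rhythm p in control were *PAXBP1-AS1* (limma p = 0.000359), *CCND3* (p = 0.000548), and *C2orf69* (p = 0.00110), each with an adjusted p over 0.5. *CCND3*, the cyclin D3 gene, peaked at 14.7 hr in control with an amplitude of 0.21 on the log2 scale. Its FPKM ran from 52.2 to 77.8 in control and from 81.8 to 144 under 6AN, with no overlap and a log2 ratio of 0.72 ± 0.29, and its interval had a score of 28.5. *C2orf69* had its interval over its own start site, 58 bp away, and ran only from 9.34 to 12.6 FPKM in control. Under 6AN they were *TFAP4* (p = 0.000546), which encodes a helix-loop-helix factor that binds E-boxes, *SDCBP2-AS1* (p = 0.00233), and *ZNF503* (p = 0.00355), by limma with adjusted p over 0.6. *TFAP4* peaked at 15.1 hr with an amplitude of 0.23 on the log2 scale, and its interval lay 3035 bp outside the locus.

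**Figure D5:**
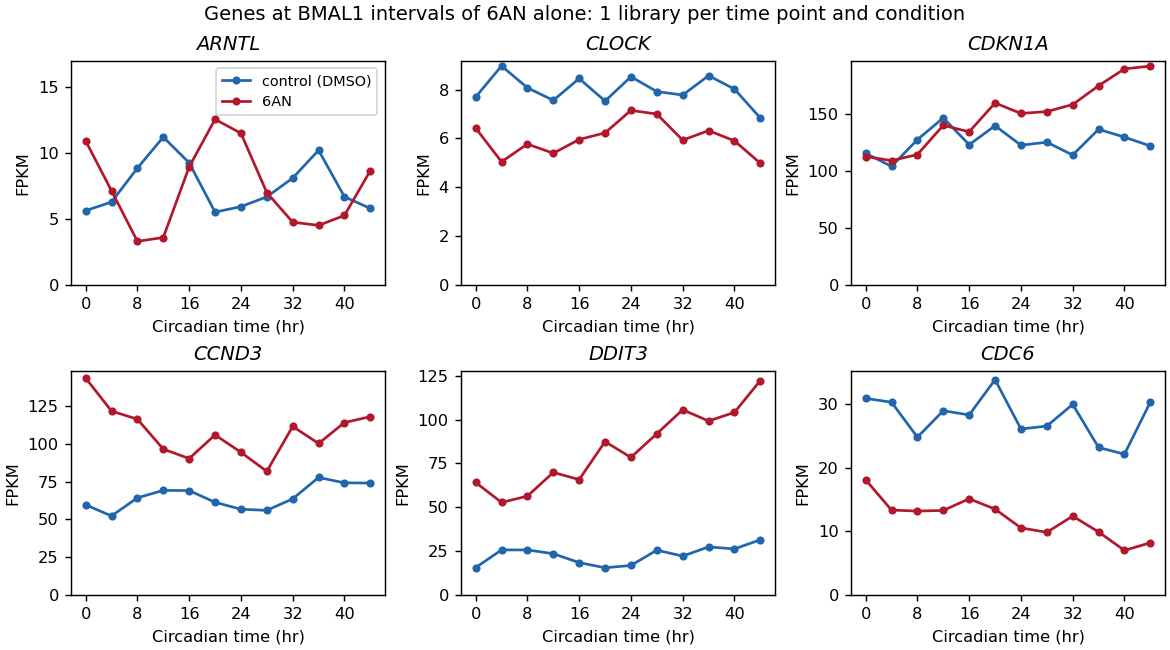
FPKM of 6 genes at 6AN-only BMAL1 intervals against circadian time (hr), with 1 point per library and no replicate, in control (DMSO) and 6AN. *ARNTL* has its highest values at CT12 and CT36 in control and at CT20 and CT24 under 6AN, *DDIT3* and *CCND3* are higher under 6AN at all 12 time points, and *CDC6* and *CLOCK* are lower at all 12.

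Of the 12 intervals of highest score, all but 1 lay in or within 5 kb of a locus. That one, the highest at 105.1, was at chr1:143263475-143263675, 136396 bp from the nearest locus, and the next score was 45.6. The interval at *ZBTB16*, a zinc finger repressor gene, scored 45.6 and lay inside the locus, where FPKM had a median of 0.321 in control and 0.819 under 6AN. An interval with the same score lay between *ZFAND2A*, a stress-induced zinc finger gene, and the noncoding *LOC101927021*. *ZFAND2A* ran from 16.05 to 24.9 FPKM in control and from 24.2 to 31.2 under 6AN and was higher at all 12 time points, by a log2 ratio of 0.48 ± 0.15.

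*CYCS*, the cytochrome c gene, with a score of 45, had medians of 40.05 FPKM in control and 31.8 under 6AN and was lower at all 12 time points (log2 ratio -0.36 ± 0.15). *XRCC5*, which encodes the Ku80 subunit of DNA repair, with a score of 39.9, ran from 135 to 163 FPKM in control and from 95.1 to 116 under 6AN. Its groups did not overlap, and the log2 ratio was -0.47 ± 0.07. *SRRM1* (score 41.8), *ZNF12* (39.3), *NSMCE2* and *KIAA0196* (45, 1 interval), *C8orf33* (42.4), *NPLOC4* and *TSPAN10* (41.8, 1 interval), and the joint locus of *COX16* and *SYNJ2BP* (40.5) had log2 ratios between -0.43 and 0.25. None of the expressed genes at these 12 intervals passed the fold rule.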

How the data were processed

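RNA-seq was measured in 24 libraries and ChIP-seq in 1 library per antibody and condition, and samples were grouped by the labelled agent, antibody, and time. For RNA-seq, the authors deposited FPKM per locus (TopHat, Bowtie, and Cufflinks on hg38, per the submitters' processing notes), with each condition normalized on its own. For ChIP-seq (Bowtie2 and HOMER), the deposited peak score is scaled tags per peak, averaged where intervals merged, and the deposited signal table was read for the tag totals in its headers. Versions are not given in the sources used here. How the authors called peaks against input is not given there either. Histone mark libraries were not used here.

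Coordinates are hg38. Start sites and sequences came from RefSeq windows (GRCh38.p14), which held none on 1 chromosome, and 852 of 980 genes with a window at an interval matched a locus by symbol or synonym. Genes with a mean FPKM of at least 0.7 were tested, with a pseudocount of 1, which understates changes of low genes. Rhythms were fitted with limma 3.58.1 in R 4.3.3, tested first on simulated data, and other values were computed with Python 3.11.15, pandas 2.3.3, and SciPy 1.17.1. Wilson intervals are at 95%. Genes at 0 in both libraries of a time point (391 to 471 of those expressed) were left out of the SD of a median ratio. With no replicate libraries, an SD is over time points, and the depth of the RNA-seq libraries is known only relative to others of the table.

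The intervals, gene lists, and motifs were chosen with earlier results of these data known. Named genes were those at the 12 highest-scoring intervals, the 8 highest and 8 lowest ratios past the fold rule, the 4 smallest rhythm p in each condition, and list genes at an interval, of which 1 is not reported here. The alternatives covered the gene window, scores, pseudocount, filters, centring, fold, rhythm test, E-box window, and leaving out each time point.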

Additional observations from a re-analysis of the deposited data

How the results depend on the processing

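The number of intervals fell from 1360 to 440 with a score of at least 18.4, the median of all BMAL1 intervals under 6AN, and was 1296 without those within 1 kb of another library's interval. The share inside a locus was 44.9% with expressed loci alone, and the E-box share was 6.32% in the 100 bp round the centre, over 617 intervals. The counts of genes higher and lower were 15 and 23 at the 440 intervals of higher score, over fewer genes than the 1758. By start-site windows, an assignment chosen after seeing the data, they were 24 (2.90%) and 31 (3.74%) of 828 genes. The shares over all expressed genes were 3.77% and 7.86%. At 2-fold the counts at the intervals were 8 and 19. At 2-fold, 121 and 293 of all expressed genes were called. With each time point left out, 49 to 57 genes were higher and 86 to 95 lower. The median log2 ratio was -0.0473 by start-site windows and 0.0180 when centred on all expressed genes, where its sign turned, and -0.0197 to -0.0122 with each time point left out.

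Rhythmic genes in control numbered 83 of 1758 at a limma p of at most 0.05, against 5.12% of all expressed genes. By start-site windows they numbered 11 of 828 (1.33%, against 1.04%). They numbered 12 to 27 with each time point left out, the lowest without CT04. Under 6AN they numbered 75 of 1758 at a limma p of at most 0.05, against 4.73% of all expressed genes. They numbered 33 with a linear trend (1.88%, against 1.94% of all expressed genes). By start-site windows they numbered 6 of 828 (0.725%, against 1.18%). With each time point left out they numbered 8 (without CT00) to 19, with 9 without CT04 (0.512%, against 0.852% of all expressed genes), CT08 (against 0.947%), or CT40 (against 0.927%), and 10 without CT12 (0.569%, against 1.15%). Among named genes, the rhythm p of *ZNF503* passed 0.01 without CT00 (0.0102) or CT24 (0.0137), and *TSPAN10* passed the fold rule with a pseudocount of 0.1 (log2 ratio -0.63). Every ratio paired the libraries of the same time point, and the labels give no replicate numbers for a further block. With a pseudocount of 0.1, the log2 ratios of *CRYBB1*, *HAS2*, and *CRYBA4* were -3.15, -2.93, and -3.39. Single libraries, and a median of 12.5 tags per peak, limit what the absence of a peak in another library shows.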
